A study of Mus musculus with 6 samples.

Results

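The superoxide dismutases and catalase were followed as 5 mouse genes, Sod1, Sod2, Sod3, Cat and Ccs, chosen by symbol through Entrez identifiers from 17254 genes listed in at least 1 library. Their RNA was measured by sequencing in cultured mouse neural progenitor cells, kept in N2 medium to which EGF and bFGF, mitogens of such cells, had been added. The 6 libraries form 3 groups of 2, cells given PQ, cells given NAC and control cells, with 48 h given as the length of treatment. What PQ and NAC stand for is not written in the labels, nor are dose, strain, age and passage, and the stated aim was to vary the redox potential inside the cells. Whether replicate libraries are separate cultures is not said either, so a p-value here reflects library-to-library spread and may be technical only.

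Superoxide forms when a single electron passes to oxygen, mostly in the respiratory chain and at oxidase enzymes. Dismutases turn it into hydrogen peroxide and oxygen, and catalase splits hydrogen peroxide into water and oxygen. Sod1 is the copper and zinc enzyme of the cytosol, Sod2 the manganese enzyme of the mitochondrial matrix, and Sod3 a secreted copper and zinc enzyme that binds heparan sulfate in the extracellular matrix. Ccs is the copper chaperone that loads Sod1, and Cat is the heme enzyme of peroxisomes. Neural tissue is known to depend on these enzymes: mice without Sod2 die young with neurodegeneration, and mutant forms of human SOD1 cause motor neuron disease.

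Summed expected counts were 9680436 to 10698241 per library. The chi-square per degree of freedom between the libraries of a group was 4.07 to 6.77, above counting noise, and 14.65 to 37.28 between libraries of different groups. Of 12 neural stem cell markers all were listed, and 10 passed the low-count filter. Vim, an intermediate filament gene, stood at 2467 to 4871 CPM (counts scaled to library size), and the stem cell factor Sox2 at 295 to 413 CPM. Hes5, a Notch target, and Prom1, which encodes a membrane protein of stem cells, were at or near 0 (at most 0.21 and 0.42 CPM). The summed level of the markers was 7126 and 6835 CPM with PQ, 4757 and 4699 CPM with NAC and 6535 and 6406 CPM in control. Vim holds most of each sum and stood at 2467 and 2489 CPM with NAC and 4306 and 4058 CPM in control. By gene, edgeR called 1 of the 10 tested markers higher (Nes) and 3 lower (Sox2, Slc1a3 and Nr2e1) for PQ against control, with a median log2 fold change of -0.25, although the PQ sums were the highest. For NAC against control it called 1 higher (Slc1a3) and 3 lower (Nes, Sox2 and Vim), with a median of 0.065. Among all tested genes it called 9.07% higher and 8.8% lower for PQ against control, and 8.65% and 9.26% for NAC against control. The marker counts of other cell types below are to be read beside the same shares.

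Only Sod3 among the 5 genes differed between groups past the test. It rose 1.87-fold with PQ over control, stood between the other groups with NAC, and was higher with PQ than with NAC. Sod1, Sod2, Cat and Ccs passed in none of the 3 comparisons, and their intervals keep any difference within a fold of 0.79 to 1.28. All 5 genes passed the low-count filter, as did 12813 genes in all. The edgeR quasi-likelihood test with Benjamini-Hochberg adjustment over those genes called 1 of the 5 for PQ against control, where it called 17.9% of all genes. It called 0 of the 5 for NAC against control, where 17.9% of all genes were called and where 1 of the 5, Sod3, had an unadjusted p under 0.05. DESeq2 also called 0 of them there. For PQ against NAC it called 1 of the 5, against 30.6% of all genes. A single call among 5 genes lies near those background shares.

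Levels per transcript length, as deposited FPKM (fragments scaled to transcript length and sequencing depth), put Sod1 first in every library. It had 239.6 and 258 FPKM with PQ, 278 and 268 FPKM with NAC and 252 and 271 FPKM in control. That placed it above 98.3% to 98.6% of the genes listed in a library. Cat came next with 52.3 and 52.8 FPKM with PQ, 52.9 and 49.9 FPKM with NAC and 46.1 and 45.9 FPKM in control. Sod2 and Ccs followed at about the same height, with 20.4 to 21.6 FPKM for Sod2 and 20.4 to 23.3 FPKM for Ccs over the 6 libraries. The ranges of these neighbours overlap, so their order is not set by these data. Sod3 was lowest in every library, with 10.8 and 11.7 FPKM with PQ, 7.88 and 8.46 FPKM with NAC and 5.57 to 6.15 FPKM in control.

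**Figure D1:**
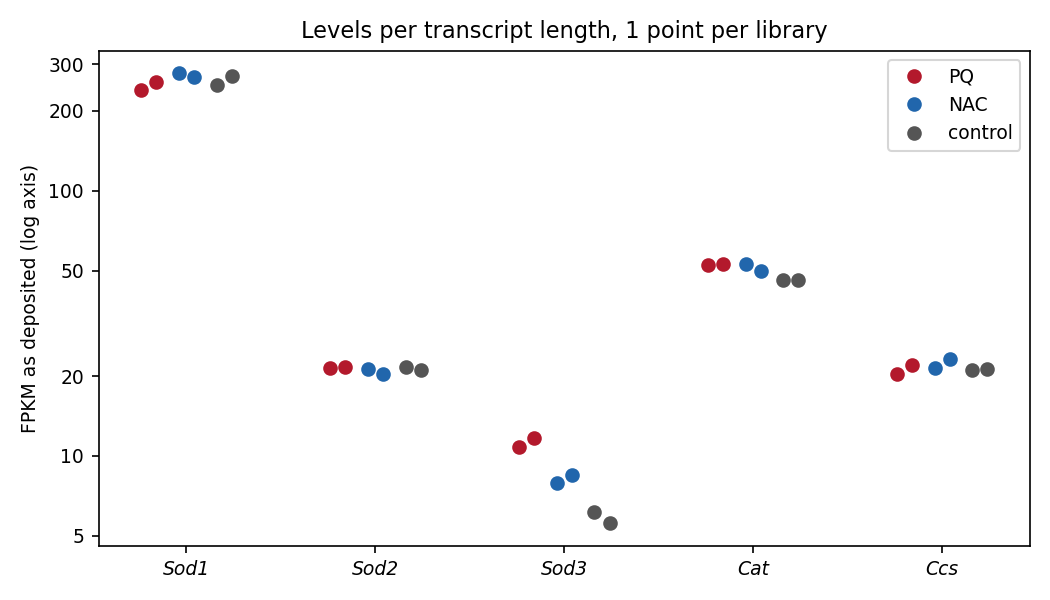
Deposited FPKM (log axis) of the 5 genes, 1 point per library, coloured by group with PQ left, NAC in the middle and control right. Sod1 lies at 239.6 FPKM or above in all 6 libraries, Sod2 and Ccs overlap near 20 to 23 FPKM, and Sod3 is lowest, with its PQ points above its NAC points and those above its control points.

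Sod3 (Entrez gene 20657, chromosome 5 from 52363804 to 52369738 of GRCm38) had 213 and 247 expected counts with PQ, 172 and 171 with NAC, and 126 and 112 in control. Scaled to library size these were 22.2 and 23.5 CPM with PQ, 15.9 and 16.9 CPM with NAC and 12.7 and 11.6 CPM in control. Every PQ library lay above every NAC library, and every NAC library above every control library. Among all tested genes 33.1% had their PQ libraries wholly above their NAC libraries. For NAC over control that share was 28.3%, and for PQ over control 29%. The share of genes with all 3 groups in this order was not counted. The PQ mean of 22.8 ± 0.925 CPM against 12.2 ± 0.776 CPM in control (SD, n = 2 each) gave a log2 fold change of 0.90 ± 0.15 (SE), with an edgeR adjusted p of 4e-04. That is a 1.87-fold difference with a 95% interval of 1.51 to 2.32, and 95.7% of tested genes had a smaller one in either direction. Sod3 stayed past the threshold in all 16 alternative settings, with log2 fold changes of 0.83 to 0.97 and adjusted p of 8.9e-07 to 0.026.

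With NAC the Sod3 mean was 16.4 ± 0.699 CPM, against 12.2 ± 0.776 CPM in control (SD, n = 2 each). The log2 fold change of 0.43 ± 0.15 (SE) had an unadjusted edgeR p of 0.0114 and an adjusted p of 0.059, and did not pass. Its 95% interval, not adjusted for the number of genes, was 1.08-fold to 1.68-fold. Scaling by library size only (adjusted p = 0.039) and limma on log2 FPKM (0.034 with a pseudocount of 1 and 0.029 with 0.1) took it past the threshold, and the other 13 alternatives did not.

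Set directly against NAC cells, PQ cells had 1.39-fold more Sod3, with a log2 fold change of 0.47 ± 0.14 (SE, edgeR adjusted p = 0.016) and a 95% interval of 1.13-fold to 1.71-fold. This call rests on single libraries. Leaving out PQ replicate 1 gave an edgeR adjusted p of 0.055, PQ replicate 2 one of 0.11 and NAC replicate 1 one of 0.11, the lone library left being assumed to vary like the other groups. With DESeq2 it was 0.07. The log2 fold change stayed between 0.41 and 0.52 under all 16 alternatives. The comparisons share the control and treated libraries, so the 3 Sod3 values are not independent of one another.

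**Figure D2:**
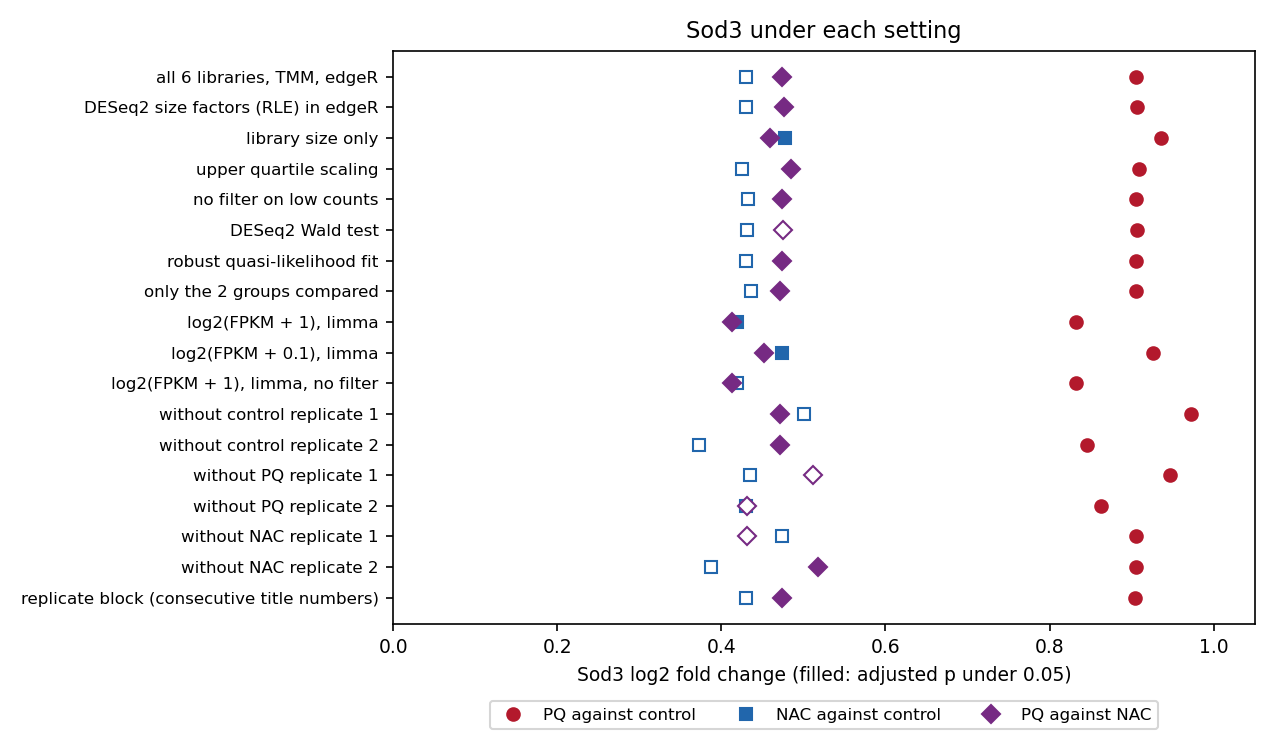
Sod3 log2 fold change (x axis) under each processing setting (rows) for PQ against control (circles), NAC against control (squares) and PQ against NAC (diamonds), filled where the adjusted p is under 0.05. The circles stay between 0.83 and 0.97 and are all filled, while the squares and diamonds lie between 0.37 and 0.52 and change their filling with the setting.

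Sod3 is known from vessel walls and connective tissue, so markers of other cell types were read beside it. Sums of 8 endothelial markers were 124 and 108 CPM with PQ, 86.5 and 106 CPM with NAC and 87.4 and 82.6 CPM in control. Nearly all of that was Flt1, a VEGF receptor gene (log2 fold change 0.45 ± 0.11 for PQ against control, edgeR adjusted p = 0.0093). Cldn5 was not listed and the other endothelial markers, such as Pecam1 and Cdh5, reached at most 1.77 CPM. Sums of 10 fibroblast and pericyte markers were 21.5 and 27.8 CPM with PQ, 31.1 and 27.2 CPM with NAC and 33.5 and 32.3 CPM in control. Most of that was the collagen gene Col3a1 (15.3 to 29.1 CPM), and Pdgfrb, the pericyte receptor, reached at most 0.10 CPM. The matrix proteoglycan gene Dcn and smooth muscle actin Acta2 were at most 2.28 CPM in any library, with log2 fold changes of 2.32 ± 0.71 and 2.83 ± 0.69 for PQ against control (edgeR adjusted p = 0.031 and 0.008). Col3a1 was called in the other direction, at -0.91 ± 0.14 for PQ against control (0.00025) and -0.54 ± 0.14 for PQ against NAC (0.0082). Of the 7 tested fibroblast and pericyte markers 1 was called higher for NAC against control (Acta2, 2.36 ± 0.73, 0.032) and 0 lower. The median log2 fold change of the 7 was 1.57 for PQ against control, although the PQ sums lay below those of control. It was 0.59 for NAC against control and 0.41 for PQ against NAC.

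Sums of 8 astrocyte markers were 894 and 829 CPM with PQ, 716 and 726 CPM with NAC and 729 and 699 CPM in control. In edgeR 2 of the 8, Aldh1l1 and the connexin gene Gja1, were called higher with PQ and 0 lower. With NAC 4 (Gfap, Aqp4, Slc1a2 and Aldoc) were called higher and 1, Gja1, lower. The median log2 fold change of the 8 was 0.26 for PQ against control. For NAC against control it was 0.87, although the NAC sums lay near those of control. For PQ against NAC 3 were higher (Aldh1l1, Gja1 and Sox9) and the 4 raised by NAC were lower, with a median of -0.48. Of all tested genes 15.5% were higher and 15.1% lower there. Gfap, the astrocyte filament gene, was at 5.41 and 4.75 CPM with PQ, 11 and 13.8 CPM with NAC and 5.96 and 4.57 CPM in control. Sums of 10 neuron markers were 325 and 310 CPM with PQ, 399 and 378 CPM with NAC and 289.5 and 293 CPM in control. The 3 groups did not overlap. In a single comparison the groups were apart for 56.6% to 66% of single tested genes, and the share with all 3 apart was not counted. In edgeR 2 of the 6 tested were higher with PQ than in control (Nefl and Gad1) and 1 lower (Tubb3). With NAC 1 was higher than in control (Map2) and 2 lower (Tubb3 and Nefl), while Rbfox3 and Slc17a6 were not listed. The median log2 fold change of the 6 was 0.45 for PQ against control. For NAC against control it was -0.21, although the NAC sums were the highest. Of 10 microglia and blood cell markers 9 were listed (Hbb-bs was not). Their sums were 10.8 and 11.2 CPM with PQ, 12.9 and 10.9 CPM with NAC and 6.67 and 6.96 CPM in control. All treated libraries were thus above both control libraries. In a single comparison both PQ libraries were so for 29% of single tested genes and both NAC libraries for 28.3%. The share of genes with both at once was not counted. Of the 3 tested microglia and blood cell markers 0 were called for PQ against control, and 1, P2ry12, was higher with NAC (1.18 ± 0.26, edgeR adjusted p = 0.0034). Of 7 oligodendrocyte lineage markers 5 were listed (Mog and Mag were not). Their sums were 1579.8 and 1780.1 CPM with PQ, 1909.8 and 2134 CPM with NAC and 1805 and 1588 CPM in control. Of the 4 tested 0 were called for PQ against control and 2 (Olig1 and Pdgfra) were higher with NAC than in control. The part of these cell types in the Sod3 values was not tested. In bulk RNA, fewer cells of a type and less RNA per cell cannot be told apart.

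Sod1 (Entrez gene 20655, chromosome 16 from 90220762 to 90226333) had 153 and 162 CPM with PQ, 175 and 167 CPM with NAC and 162.1 and 176 CPM in control. The libraries with PQ were the lowest, though PQ replicate 2 and control replicate 1 were almost equal. The log2 fold change was -0.10 ± 0.09 for PQ against control (SE, edgeR adjusted p = 0.5), 0.02 ± 0.09 for NAC against control (0.93) and -0.12 ± 0.09 for PQ against NAC (0.37). The 95% interval for PQ against control runs from a fold of 0.81 to 1.07. For NAC against control it is 0.88 to 1.16.

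Ccs (Entrez gene 12460, chromosome 19 from 4825366 to 4839356), the chaperone of Sod1, had 21.3 and 22.6 CPM with PQ, 22 and 23.7 CPM with NAC and 22.2 and 22.6 CPM in control. The groups overlapped in all 3 comparisons. Its log2 fold change was -0.03 ± 0.14 for PQ against control (SE, edgeR adjusted p = 0.91) and 0.02 ± 0.13 for NAC against control (0.93). The intervals were 0.80-fold to 1.19-fold and 0.84-fold to 1.24-fold. Per length, Sod1 stood 11.5 to 13 times above Ccs in every library, as a ratio of FPKM values.

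Sod2 (Entrez gene 20656, chromosome 17 from 13007839 to 13018119) had 83.4 and 81.9 CPM with PQ, 80.8 and 77 CPM with NAC and 84.1 and 83.2 CPM in control. NAC libraries lay below the others by a few CPM. The log2 fold change was -0.02 ± 0.10 for PQ against control (SE, edgeR adjusted p = 0.93), with an interval of 0.86-fold to 1.13-fold, and -0.08 ± 0.10 for NAC against control (0.6), with 0.82-fold to 1.08-fold. Its expected counts were not whole numbers in any library (such as 832.24 in control replicate 1), while those of the other 4 genes were. An estimate of this kind is not whole where reads are divided between features, and the files do not name those features.

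Cat (Entrez gene 12359, chromosome 2 from 103453904 to 103485153) had 135 and 133 CPM with PQ, 134 and 125 CPM with NAC and 119.6 and 120.1 CPM in control. All treated libraries were above both control libraries. The differences were small: the log2 fold change was 0.16 ± 0.09 for PQ against control (SE, edgeR adjusted p = 0.27) and 0.11 ± 0.09 for NAC against control (0.45). Their intervals, 0.98-fold to 1.28-fold and 0.94-fold to 1.24-fold, include no difference. Of all tested genes 29% had both PQ libraries above both control libraries, and 28.3% both NAC libraries above them. Such a separation is thus common in a single comparison, and the share of genes with both was not counted.

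**Figure D3:**
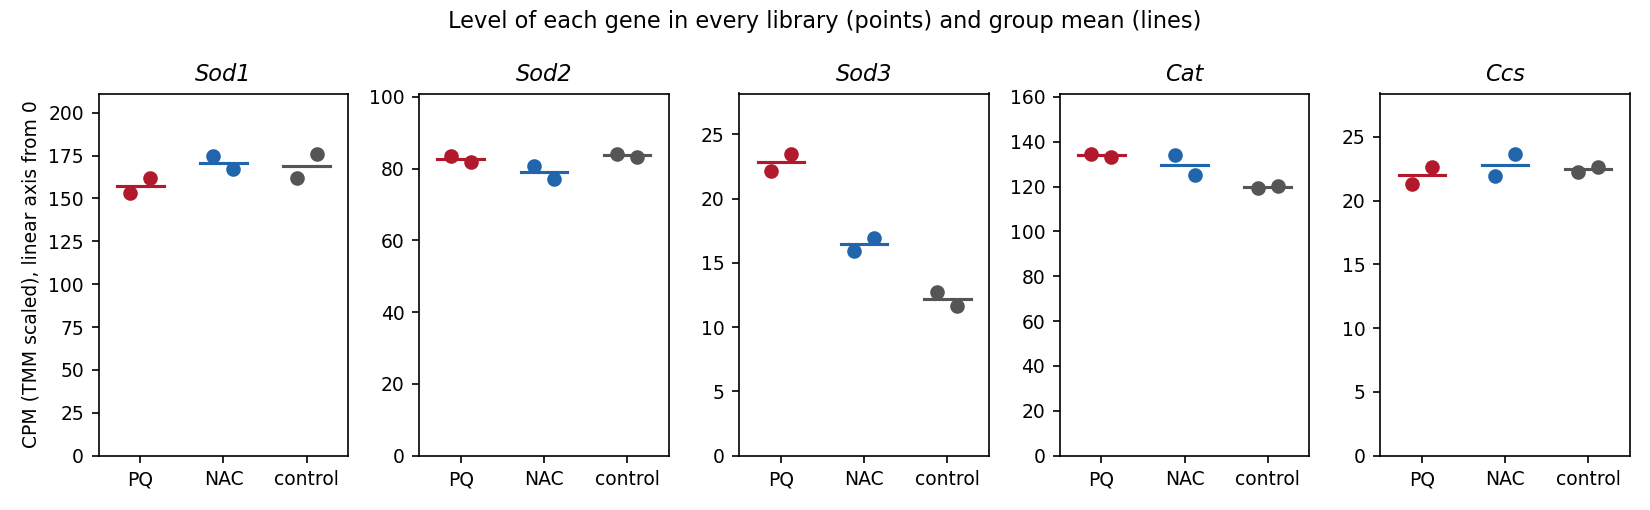
CPM (y axis, from 0) of each gene in every library, as points, with group means as lines, for PQ, NAC and control from left to right. Sod3 steps down over the groups, at 22.8, 16.4 and 12.2 CPM on average, while the other 4 genes vary little between groups.

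**Figure D4:**
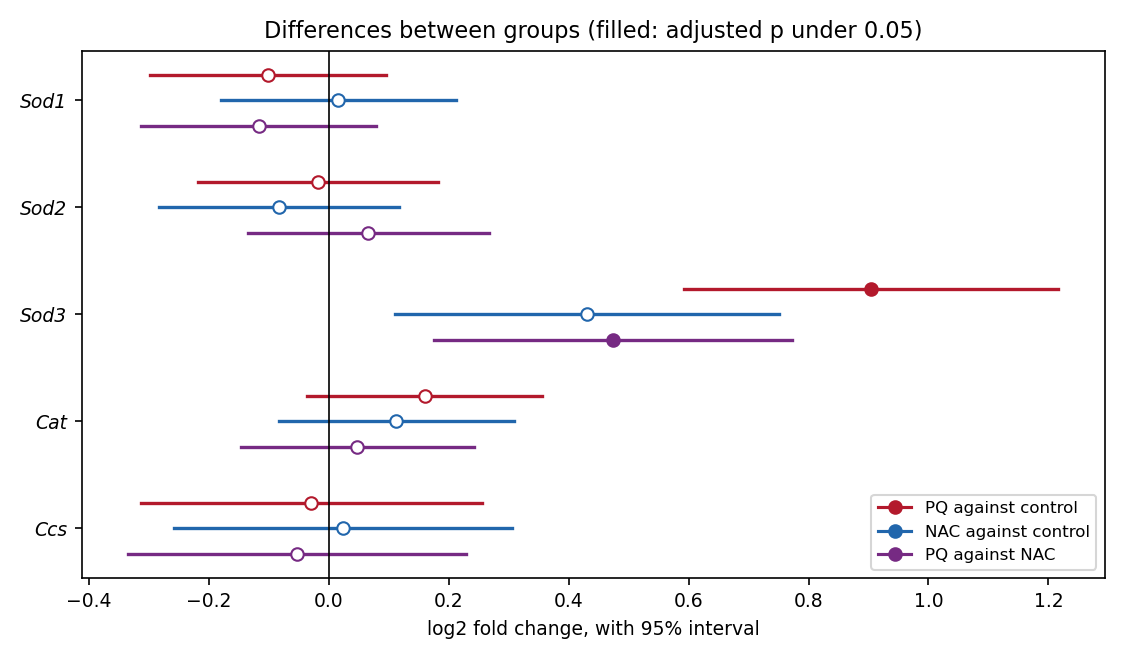
Log2 fold changes (x axis) of the 5 genes (rows) with 95% intervals for the 3 comparisons, filled where the edgeR adjusted p is under 0.05. Only the Sod3 intervals lie wholly above 0, and all 12 intervals of the other genes include 0.

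Counted over the list, 3 of the 5 genes had groups that did not overlap for PQ against control (Sod3 and Cat above, Sod1 below), as did 57.2% of all tested genes (29% above and 28.2% below). For NAC against control it was also 3 of 5 (Sod3 and Cat above, Sod2 below), against 56.6% of all (28.3% above and 28.3% below). For PQ against NAC 3 of 5 did not overlap (Sod2 and Sod3 above, Sod1 below), against 66% of all (33.1% above and 32.9% below). The median log2 fold change of the 5 genes was -0.018, 0.023 and 0.048 in these comparisons, and that of all tested genes -0.0024, -0.0023 and 0.0011.

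Among the 3 dismutases Sod1 made up 88.1% and 88.6% of the summed FPKM with PQ, 90.5% and 90.3% with NAC and 90.1% and 91% in control. Sod2 held 7.91% and 7.40% with PQ, 6.91% and 6.86% with NAC and 7.71% and 7.10% in control. The share of Sod3 was 3.97% and 4.00% with PQ, 2.57% and 2.85% with NAC and 2.2% and 1.87% in control. The secreted enzyme thus stayed a small part of dismutase RNA in every library. As a ratio of FPKM values, Sod2 stood 1.99 and 1.85 times above Sod3 with PQ, 2.69 and 2.41 times with NAC and 3.50 and 3.80 times in control.

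Upstream windows of Sod1, Sod2 and Cat are shown because factors of the regulator list below (NRF2 and FOXO proteins) are known to act at motifs of this kind. They are the 250 bases before the RefSeq start on GRCm38.p6, read 5′ to 3′ on the strand of the gene, chr16:90220512-90220761 (plus), chr17:13007589-13007838 (plus) and chr2:103485154-103485403 (minus). Of the 5 genes these 3 were in the promoter table, and Sod3 and Ccs are named only. Capitals mark matches to the motifs searched.
Sod1: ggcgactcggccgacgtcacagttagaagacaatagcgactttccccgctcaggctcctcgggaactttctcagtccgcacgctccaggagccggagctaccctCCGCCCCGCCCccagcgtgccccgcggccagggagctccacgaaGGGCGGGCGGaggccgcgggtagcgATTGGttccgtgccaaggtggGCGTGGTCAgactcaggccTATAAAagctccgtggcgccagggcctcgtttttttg
Sod2: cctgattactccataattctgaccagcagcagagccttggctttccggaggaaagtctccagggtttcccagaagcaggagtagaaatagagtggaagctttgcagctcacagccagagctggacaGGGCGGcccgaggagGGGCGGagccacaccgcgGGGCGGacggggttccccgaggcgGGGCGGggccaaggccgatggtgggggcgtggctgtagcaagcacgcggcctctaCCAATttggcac
Cat: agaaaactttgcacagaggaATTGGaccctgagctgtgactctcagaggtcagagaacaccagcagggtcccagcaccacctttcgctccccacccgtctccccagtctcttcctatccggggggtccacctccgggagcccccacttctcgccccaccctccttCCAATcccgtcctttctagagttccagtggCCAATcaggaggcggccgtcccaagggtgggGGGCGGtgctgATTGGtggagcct
The motifs were the GC box GGGCGG, the box named after its letters CCAAT, the antioxidant response element core TGACNNNGC and the FOXO site GTAAACA on both strands, and TATAAA on the gene's strand. GC boxes numbered 4 for Sod1, 4 for Sod2 and 1 for Cat, those of Sod1 in 2 overlapping pairs, and 32.7% of 32817 windows of the same length held at least 1. CCAAT numbered 1, 1 and 4, with at least 1 in 33.8% of windows. Sod1 held 1 antioxidant response element core (10.2% of windows) and 1 TATAAA (7.6%). The FOXO site (3.16%) had 0 matches in the 3 windows, which says only that these letters are not there.

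The genes whose log2 CPM followed that of Sod3 most closely over the 6 libraries, among 9654 with a mean of at least 10 CPM, were Polr1e, Kctd10 and Tnfsf9, with Pearson's r of 0.996, 0.994 and 0.993. With 6 points that share libraries, this is a description. Polr1e encodes a subunit of RNA polymerase I and had 19.8 and 20 CPM with PQ, 14.4 and 14.8 CPM with NAC and 12.1 and 10.7 CPM in control. Kctd10, an adaptor gene of a cullin ubiquitin ligase, had 63.4 and 68.2 CPM with PQ, 51.9 and 55.1 CPM with NAC and 43.4 and 39.6 CPM in control. Tnfsf9, a ligand gene of the TNF family, had 19.7 and 21.9 CPM with PQ, 15.6 and 16.2 CPM with NAC and 13.3 and 11.6 CPM in control.

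Genes around these enzymes were read in 8 lists by role, and each call below is an edgeR adjusted p under 0.05, with log2 fold changes given ± SE. Among all tested genes 9.07% were higher and 8.8% lower for PQ against control, 8.65% and 9.26% for NAC against control and 15.5% and 15.1% for PQ against NAC. The median log2 fold change of all tested genes was -0.0024, -0.0023 and 0.0011 in the same comparisons. Where leaving out 1 library ended a call, the library and its adjusted p are named. Among the called list genes described next, strand could matter most for Rac1, Pex11g, Nos3, Prdx5 and Acaa1b, which share 51.4%, 41.1%, up to 25.2%, 19.1% and 11.4% of their exonic bases with a gene on the other strand.

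Among the other peroxide-removing enzymes, 10 of which were tested, Gpx1 moved in opposite directions with the 2 treatments. This glutathione peroxidase of the cytosol and mitochondria had 120.6 and 129.5 CPM with PQ, 55 and 49.8 CPM with NAC and 96.5 and 96.8 CPM in control. The 3 groups did not overlap. In single comparisons 56.6% to 66% of all tested genes had groups apart, and the share with all 3 apart was not counted. Its log2 fold change was 0.37 ± 0.10 for PQ against control (edgeR adjusted p = 0.012, and 0.15 without PQ replicate 2), -0.88 ± 0.10 for NAC against control (6.2e-06) and 1.26 ± 0.10 for PQ against NAC (6.3e-08). With PQ against control 2 rose and 0 fell (median log2 fold change 0.03), the second being Prdx1, a cytosolic peroxiredoxin (0.29 ± 0.09, adjusted p = 0.029). That call ended when either PQ library or either control library was left out (0.17, 0.12, 0.078 and 0.072). With NAC against control 0 rose and 3 fell (median -0.14), the others being Gpx8, a peroxidase of the endoplasmic reticulum (-0.38 ± 0.13, 0.044), and Prdx5 (-0.31 ± 0.10, 0.044).

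Those Gpx8 and Prdx5 falls were not stable. For Gpx8 the edgeR adjusted p was 0.13 and 0.17 when NAC replicate 1 or 2 was left out, 0.39 when control replicate 2 was, and 0.055 and 0.051 when PQ replicate 1 or 2 was. PQ libraries enter this comparison through the shared spread and the scaling. For Prdx5 it was 0.35 when NAC replicate 1 was left out, 0.073 and 0.1 when control replicate 1 or 2 was, and 0.066 and 0.062 when PQ replicate 1 or 2 was. PQ cells set against NAC cells had 3 enzymes higher and 0 lower (median log2 fold change 0.17), Gpx1 with Gpx8 (0.45 ± 0.12, adjusted p = 0.011) and Prdx5 (0.33 ± 0.10, 0.021). Gpx8 missed there without PQ replicate 1 (0.14) or NAC replicate 2 (0.061), and Prdx5 without PQ replicate 1 (0.19) or NAC replicate 1 (0.24).

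The list of superoxide sources held 18 genes, mostly NADPH oxidase subunits and oxidases such as Xdh. Of these 15 were listed in a library and only 8 were tested, so the counts below do not cover the rest. With PQ against control 1 rose and 0 fell (median log2 fold change -0.017), with NAC against control 0 rose and 0 fell (median -0.093), and for PQ against NAC 2 were higher and 1 lower (median 0.12). Xdh, xanthine dehydrogenase of purine breakdown, was at a low level, with 4.16 and 5.80 CPM with PQ, 1.30 and 0.891 CPM with NAC and 2.12 and 1.87 CPM in control. Its log2 fold change was 1.32 ± 0.32 for PQ against control (edgeR adjusted p = 0.0071, and 0.13 without PQ replicate 2) and 2.17 ± 0.35 for PQ against NAC (0.00012). The aldehyde oxidase Aox1 was higher with PQ than with NAC (0.40 ± 0.12, 0.019), and Rac1, a small GTPase that activates NADPH oxidases, was lower (-0.28 ± 0.10, 0.032). Aox1 missed the threshold without PQ replicate 1 (0.18) or NAC replicate 1 (0.22), and Rac1 without PQ replicate 2 (0.27) or NAC replicate 1 (0.25).

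Copper supply, on which Sod1 and Sod3 depend, held the largest change among the called role genes for NAC against control. All 13 listed genes were tested. Steap4, a metalloreductase that reduces iron and copper for uptake, had 85.7 and 102.5 CPM with PQ, 239.5 and 230.3 CPM with NAC and 42.3 and 47.9 CPM in control. It rose with both treatments, by a log2 fold change of 1.06 ± 0.11 with PQ (edgeR adjusted p = 5.7e-06) and 2.38 ± 0.11 with NAC (1.6e-10), and was lower with PQ than with NAC (-1.32 ± 0.11, 6.3e-08). With PQ against control 2 rose and 1 fell (median log2 fold change 0.10), the others being the copper transporter Slc31a2 (0.67 ± 0.19, 0.02) and, lower, Steap2 (-0.35 ± 0.11, 0.033). Slc31a2 missed without PQ replicate 1 (0.051), PQ replicate 2 (0.16) or control replicate 1 (0.11), and Steap2 without PQ replicate 1 (0.11), PQ replicate 2 (0.21) or control replicate 2 (0.24).

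With NAC against control 1 copper supply gene, Steap4, rose and 2 fell (median log2 fold change -0.13). Atp7a, the copper pump that loads secreted copper enzymes such as Sod3, fell (-0.68 ± 0.13, edgeR adjusted p = 0.0009), and so did Steap2 (-0.47 ± 0.11, 0.0056), which missed without NAC replicate 2 (0.053) or control replicate 2 (0.064). For PQ against NAC 3 were higher and 1, Steap4, lower (median 0.23). They were Atp7a (0.78 ± 0.13, 0.00013), the copper importer Slc31a1 (0.36 ± 0.10, 0.0075) and Cox17, a copper chaperone of mitochondria (0.39 ± 0.15, 0.047). Slc31a1 missed without PQ replicate 2 (0.083) or NAC replicate 2 (0.059), and Cox17 without either PQ library or either NAC library (0.17, 0.15, 0.12 and 0.19).

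Manganese supply, which serves Sod2, had 6 tested genes. With PQ against control 0 rose and 0 fell (median log2 fold change -0.019), and for PQ against NAC 0 were higher and 0 lower (median -0.038). With NAC against control 1 rose and 1 fell (median 0.07), the divalent metal transporter Slc11a2 (0.37 ± 0.13, edgeR adjusted p = 0.049), which also carries iron, and Slc25a39 (-0.32 ± 0.10, 0.039), a mitochondrial carrier known for glutathione import. Slc11a2 missed without NAC replicate 1 (0.051), NAC replicate 2 (0.33), control replicate 2 (0.28), PQ replicate 1 (0.063) or PQ replicate 2 (0.069). For Slc25a39 the value was 0.32 when NAC replicate 1 was left out, 0.14 when control replicate 2 was, and 0.053 and 0.0501 when PQ replicate 1 or 2 was.

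Peroxisome genes, the surroundings of Cat, are described for 32 tested members. With PQ against control 1 rose and 0 fell (median log2 fold change 0.0037), namely Phyh, which hydroxylates phytanoyl-CoA (0.63 ± 0.19, edgeR adjusted p = 0.029). Phyh missed without PQ replicate 1 (0.12), PQ replicate 2 (0.12) or control replicate 1 (0.28). With NAC against control 0 rose and 1 fell (median -0.055), the low-level Pex11g (-1.62 ± 0.49, 0.028, at most 2.08 CPM in any library), which missed without NAC replicate 1 (0.19), NAC replicate 2 (0.072) or control replicate 2 (0.16).

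Set against NAC, PQ cells had 3 peroxisome genes higher and 1 lower (median log2 fold change 0.0085). Phyh (0.88 ± 0.19, edgeR adjusted p = 0.002) kept its call without any 1 library. The thiolase gene Acaa1b, which has a close copy in Acaa1a that may share its reads, was higher (1.57 ± 0.42, 0.0077, and 0.11 without NAC replicate 1). The carnitine acetyltransferase Crat was higher too (0.31 ± 0.09, 0.019), and Hsd17b4, the multifunctional enzyme of peroxisomal fatty acid oxidation, was lower (-0.28 ± 0.09, 0.027). Both calls ended when PQ replicate 1, PQ replicate 2, NAC replicate 1 or NAC replicate 2 was left out, with 0.062, 0.14, 0.12 and 0.053 for Crat and 0.069, 0.21, 0.13 and 0.081 for Hsd17b4.

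Regulators known to act on these enzymes, 17 of them tested, moved in both directions. With PQ against control 2 rose and 2 fell (median log2 fold change 0.10). Bach1, a repressor at NRF2 target sites, rose (0.41 ± 0.11, edgeR adjusted p = 0.012, and 0.13 without PQ replicate 2), as did the NF-kB subunit Rela (0.34 ± 0.10, 0.024), while the coactivator Ppargc1b (-0.95 ± 0.23, 0.007) and Foxo6 (-1.19 ± 0.39, 0.04, at most 3.12 CPM in any library) fell. Rela missed without PQ replicate 2 (0.24) or control replicate 2 (0.11) and Ppargc1b without PQ replicate 2 (0.063) or control replicate 1 (0.095). Foxo6 missed without either PQ library or either control library (0.13, 0.19, 0.078 and 0.11).

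With NAC against control 5 regulators rose and 3 fell (median log2 fold change 0.13). Foxo4 (0.64 ± 0.13, edgeR adjusted p = 0.0022), Bach1 (0.41 ± 0.11, 0.011), Nfkb1 (0.35 ± 0.10, 0.025), the deacetylase gene Sirt1 (0.47 ± 0.14, 0.029) and Trp53, which encodes p53 (0.32 ± 0.10, 0.037), rose. The oxygen response factor Hif1a (-0.43 ± 0.10, 0.0056), Ppargc1b (-0.74 ± 0.22, 0.026) and Foxo6 (-1.24 ± 0.39, 0.032) fell. Foxo4 kept its call without any 1 library, but only narrowly without NAC replicate 2, where its log2 fold change was 0.50. Leaving out NAC replicate 1 gave 0.083 for Bach1, 0.091 for Nfkb1, 0.28 for Sirt1, 0.12 for Trp53, 0.18 for Ppargc1b and 0.29 for Foxo6, and NAC replicate 2 gave 0.051 for Bach1, 0.12 for Nfkb1, 0.13 for Trp53 and 0.075 for Hif1a. Leaving out control replicate 1 gave 0.16 for Sirt1, 0.27 for Ppargc1b and 0.067 for Foxo6, and control replicate 2 gave 0.16 for Nfkb1, 0.28 for Trp53, 0.099 for Hif1a and 0.088 for Foxo6. Trp53 had 0.054 without PQ replicate 1 and 0.057 without PQ replicate 2.

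Between PQ and NAC 3 regulators were higher and 4 lower (median log2 fold change -0.035). Hif1a (0.57 ± 0.10, edgeR adjusted p = 0.00031), Foxo3 (0.49 ± 0.14, 0.0096) and Nfe2l2, which encodes NRF2 (0.32 ± 0.09, 0.012), were higher, and Sirt1 (-0.64 ± 0.15, 0.0027), Foxo4 (-0.54 ± 0.13, 0.0044), Nfkb1 (-0.40 ± 0.10, 0.0074) and Foxo1 (-0.44 ± 0.12, 0.01) were lower. Hif1a kept its call without any 1 library. Leaving out PQ replicate 1 gave 0.052 for Foxo3, 0.077 for Nfe2l2, 0.066 for Foxo4, 0.065 for Nfkb1 and 0.061 for Foxo1, and PQ replicate 2 gave 0.052 for Foxo3, 0.069 for Nfe2l2, 0.057 for Sirt1 and 0.06 for Foxo1. Leaving out NAC replicate 1 gave 0.13 for Foxo3, 0.068 for Nfe2l2, 0.06 for Sirt1 and 0.098 for Foxo1, and NAC replicate 2 gave 0.062 for Nfe2l2 and 0.081 for Foxo4.

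Mitochondrial antioxidants, the partners of Sod2 in the matrix, had 12 tested members, of which 0 rose and 0 fell with PQ against control (median log2 fold change 0.025). The matrix peroxiredoxin gene Prdx3, for example, had 56.8 and 62.3 CPM with PQ and 64 and 61.1 CPM in control (-0.07 ± 0.10, edgeR adjusted p = 0.7). With NAC against control 0 rose and 1 fell (median -0.059), and for PQ against NAC 1 was higher and 0 lower (median 0.057), in both cases Prdx5 as given above, which both lists hold.

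NO synthases make nitric oxide, which reacts with superoxide, and 2 were tested. Nos2, the inducible form, had 56.8 and 45.5 CPM with PQ, 10.5 and 16.2 CPM with NAC and 36.9 and 29.5 CPM in control. Its groups did not overlap, as was so for 56.6% to 66% of all tested genes in single comparisons. The log2 fold change of Nos2 was 0.62 ± 0.16 for PQ against control (edgeR adjusted p = 0.011), -1.32 ± 0.18 for NAC against control (4.5e-05) and 1.94 ± 0.18 for PQ against NAC (2.4e-07). The first of these missed without PQ replicate 1 (0.14) or control replicate 2 (0.063). Nos3, the endothelial form, was at most 2.29 CPM in any library and was higher with PQ than with NAC (1.21 ± 0.44, 0.048), a call that ended without either PQ library or either NAC library (0.29, 0.053, 0.15 and 0.16).

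**Figure D5:**
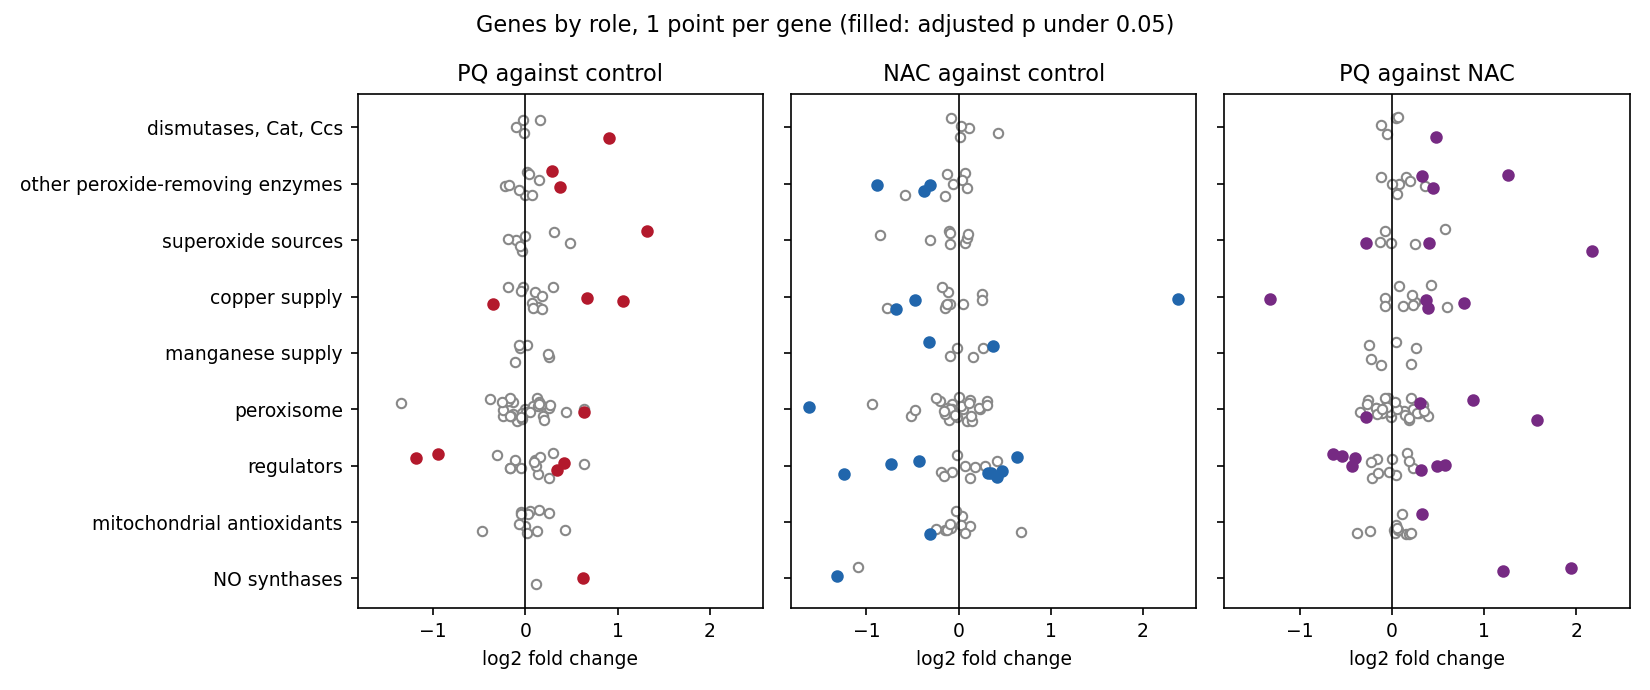
Log2 fold changes (x axis) of the tested genes of each role list (rows, 1 point per gene, spread in height for legibility) in the 3 comparisons (panels), filled where the edgeR adjusted p is under 0.05. Most points lie open near 0, and the point farthest right is Xdh for PQ against control (1.32), Steap4 for NAC against control (2.38) and Xdh for PQ against NAC (2.17).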

How the data were processed

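Per the labels, total RNA was sequenced on a BGISEQ-500 in 6 libraries. The deposited tables give an expected count and FPKM (scaled to length and depth by the authors) for each gene above 0, per the file headers. RSEM, HISAT2 2.0.4 and Bowtie2 2.2.5 and the genome mm10 appear in the submitters' processing notes with no role stated. Use of strand in counting is not given in the sources used here. None of the 5 genes shares exonic bases with another gene in GENCODE M21. Genes not listed were set to 0, and 17199 of 17254 identifiers had a RefSeq name (GRCm38.p6).

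Expected counts, 20.9% to 21.4% of them not whole in a library, were rounded and tested with edgeR 4.0.16 (R 4.3.3, limma 3.58.1, DESeq2 1.42.0): filterByExpr (minimum count 10, total 15), TMM scaling and a quasi-likelihood fit of 3 group means to the 6 libraries together (3 residual degrees of freedom). P-values are 2-sided and adjusted by Benjamini-Hochberg over 12813 genes, with a threshold of 0.05. The standard error is the absolute log2 fold change over the square root of F, and 95% intervals use the t distribution. Data were also simulated at the depth and spread of these libraries (12679 genes). For PQ against control 61.2% of 1.5-fold and 92.5% of 2-fold changes were found. Only a small part of the genes was changed, at any level past a low minimum, and depth was not varied. These shares are therefore not those of the 5 genes, and what limits precision was not tested. Alternatives were other scalings, no filter, DESeq2, a robust fit, the compared groups alone, limma on log2(FPKM + pseudocount of 1 or 0.1) and leaving out each library.

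The genes and lists were chosen with earlier results of these data known. The rule for names took, per list and comparison, the 4 called genes with the smallest p and all called in a direction where these were 5 or fewer, plus the 3 genes most like a called member. One gene each of the peroxisome and oligodendrocyte lineage lists is not reported here. Replicates are numbered in sample order. Figures used Python 3.11.15 and matplotlib 3.10.9.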

Additional observations from a re-analysis of the deposited data

How the results depend on the processing

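Under the 16 alternatives Sod3 kept its call and direction for PQ against control, and Sod1, Sod2, Cat and Ccs were called under none in any comparison. Sod3 passed for NAC against control when scaled by library size only (log2 fold change 0.48) and with limma on log2 FPKM (0.42 with a pseudocount of 1 and 0.47 with 0.1). For PQ against NAC it did not pass with DESeq2 (0.48), and without 1 library its log2 fold change ranged from 0.43 to 0.52. Estimates near 0 changed sign without a call. For PQ against control, Sod2 was 0.0136 and Ccs 0.0023 with library size only, and 0.0116 and 0.0003 (log2 FPKM + 1, also without the filter) or 0.0121 and 0.0003 (+ 0.1) with limma. Leaving out 1 library, Ccs ranged from -0.073 to 0.013 for PQ against control, from -0.031 to 0.077 for NAC against control and from -0.11 to 0.0013 for PQ against NAC, Sod1 from -0.0399 to 0.082 for NAC against control and Cat from -0.002 to 0.099 for PQ against NAC. The count of genes called was 828 to 2193 for PQ against control (2289 with all libraries), 1344 to 2182 for NAC against control (2294) and 2448 to 4421 for PQ against NAC (3926) without 1 library, and 702, 972 and 2514 with limma on unfiltered log2(FPKM + 1). Of 53 calls of list genes DESeq2 kept 39, library size only 47, limma on filtered FPKM 42 and 41, limma without the filter 14, and leaving out 1 library 28 to 44. Scaling by library size only shifted the median of all genes by at most 0.047. The titles number the libraries 8 to 10 and 11 to 13, and each set of consecutive numbers held 1 library per group. No label calls these sets batches. A replicate block for the sets, chosen after seeing the data, left 2 residual degrees of freedom. It called 1842, 1901 and 3485 genes in the 3 comparisons. Sod3 then had log2 fold changes of 0.90, 0.43 and 0.47 (edgeR adjusted p = 0.00147, 0.0855 and 0.0275). The block kept 42 of the 53 list calls, and no call among the 5 genes changed. Deviations of libraries in the same set correlated at -0.068, -0.112 and 0.112 across genes, and the sets were not taken as pairs. With 2 libraries a group, a change under 1.5-fold can be missed, also in Sod3 or Ccs, the genes with the fewest counts. How often that happens for these genes, and what limits it, was not tested.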
